A study of Mus musculus with 24 samples.

Results

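Inhibition of BTK alone was compared with vehicle in bone marrow mononuclear cells of mice carrying the E76K allele of Shp2, in bulk RNA. The 3 specimens numbered 4, 5 and 6 came from mice given ACP196, a BTK inhibitor, and the 3 numbered 1, 2 and 3 came from mice given vehicle. These were 6 of the 12 specimens of the series, and the comparison was read across the 12742 genes with enough counts to test, of 24421 genes in the table. The other 6 specimens came from the same kind of mice given ACP319, an inhibitor of PI3K p110δ, alone (specimens 7 to 9) or together with ACP196 (specimens 10 to 12). Treatment lasted 3 weeks. Every group carried the Shp2 allele, so no group without it is compared here. Strain, age, dose, the driver of the allele and whether a number is 1 mouse or a pool are facts not given in the sources used. The p-values therefore measure how far these specimens spread, which may be technical in part.

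SHP2, encoded by Ptpn11, is a phosphatase that relays cytokine receptor signals to RAS and ERK, and the E76K substitution holds it in its active form. Activating mutations of it are a known cause of juvenile myelomonocytic leukemia, in which myeloid progenitors overgrow and respond to very little GM-CSF. BTK is a Tec family kinase drawn to the membrane by the lipid that PI3K makes. There it is switched on by SYK and Src family kinases and activates the phospholipase PLCG2, which leads to calcium release and NF-kB. It is best known below the B-cell receptor, and in neutrophils, monocytes and macrophages it also acts below Toll-like and Fc receptors. ACP196, now called acalabrutinib, binds the kinase itself.

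The libraries of the BTK inhibitor group differed from each other more than those of the vehicle group. Total counts were 20522801, 22154833 and 20731258 for vehicle and 21829971, 8993950 and 21647609 for specimens 4, 5 and 6. Rn45s, the ribosomal RNA precursor, took 15.4% of the counts of specimen 5 and from 0.203% to 0.773% in the other 11. Specimen 6 carries another day in its title (30) than the other 11 (24), and the labels do not say what was done on that day, so the day and the specimen cannot be told apart. Across all tested genes, specimen 6 had correlations of 0.971 to 0.984 with the vehicle specimens on log2 CPM (counts per 1000000, scaled by library), against 0.925 to 0.959 for specimen 4 and 0.827 to 0.868 for specimen 5. Y-linked transcripts were present in specimens 1, 2 and 4 and not in 3, 5 and 6. Genes of granulocytes were abundant (S100a8 at 14515 to 52340.4 CPM) in a preparation labelled as mononuclear cells. Which cells carried these transcripts was not tested. The 4 adult hemoglobin genes Hba-a1, Hba-a2, Hbb-bs and Hbb-bt had a count of 0 in all 12 specimens, beside Gata1, an erythroid factor, at 26.6 to 207 CPM in specimens 1 to 6.

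Transcripts of the inhibited kinase itself were at like levels in both groups. Btk (chromosome X, 134542341 to 134583140, mm10) stood at 108, 88.5 and 104 CPM in the vehicle specimens and at 107, 83.8 and 98.9 CPM in specimens 4, 5 and 6. The groups overlapped, with a log2 difference of -0.05 (SE 0.21, n = 3 and 3, edgeR adjusted p = 0.886). Tec, its closest relative named here, was at 30.4 ± 3.11 CPM under vehicle and 29.8 ± 2.96 under the inhibitor (SD, n = 3 each; log2 difference -0.02, SE 0.22). Ptpn11, which carries the allele, was at 92.6, 144 and 93.7 CPM against 61.5, 21.4 and 101 CPM, with overlapping groups (-0.84, SE 0.41, edgeR adjusted p = 0.220) and a difference of -0.44 without specimen 5. Pik3cd, the p110δ subunit, was at 215, 252 and 199 CPM against 121, 162 and 163 CPM. Its groups did not overlap (-0.58, SE 0.23, edgeR adjusted p = 0.166), but they did once the trend with gene length described next was removed (-0.13, SE 0.20).

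No gene reached an adjusted p of 0.05 in edgeR's quasi-likelihood test, with p-values adjusted by Benjamini and Hochberg's method (0%, smallest adjusted p 0.0773). At an unadjusted p under 0.05 there were 3153 genes, of which 2010 were higher (15.8%) and 1143 lower (8.97%) under the inhibitor. The same contrast gave 1085 calls in DESeq2 and 2979 in limma voom with quality weights. Over all genes 48.8% had a log2 difference above 0 and 51.2% one below 0, with a median of -0.02. All 3 inhibitor specimens lay above all 3 vehicle specimens for 1136 genes (8.92%) and below them for 1224 (9.61%). Specimen 5 was the farthest from vehicle for 906 of the 1136 and 916 of the 1224, and specimen 6 was the nearest for 911 and 951. Genes more than 2-fold from the vehicle mean numbered 2660 in specimen 4 (20.9%), 6359 in specimen 5 (49.9%) and 459 in specimen 6 (3.60%), beside 404 to 1076 for each vehicle specimen against the other 2. Without specimen 6 the edgeR test called 3809 genes, 2083 higher and 1726 lower. Of these 3801 were tested with all specimens, and 2880 had the same sign in specimen 6 against the vehicle mean. Both signs were taken against the same 3 vehicle specimens, so the 2880 are no independent replication. Without specimen 5 the edgeR test called 1.

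Short transcripts were higher and long transcripts lower in specimens 4 and 5, while specimen 6 lay with vehicle. With the genes split by length into 5 equal classes, in the shortest class, 56 to 1566 bases, the median log2 difference from the vehicle mean was 0.81 in specimen 4, 1.09 in specimen 5 and 0.13 in specimen 6. In the longest class, from 4764 bases, it was -0.76, -0.64 and -0.07. The share of genes above vehicle in all 3 specimens went from 20.7% in the shortest class through 12.1%, 6.08% and 3.85% to 1.84% in the longest, and the share below it from 1.18% through 4.43%, 9.97% and 14.6% to 17.8%. The median length was 1661 bases for the genes above vehicle, 4121 for those below it and 2835 over all tested genes. Vehicle was not flat either: the slope of log2 CPM on log2 length, against the mean of the 12 specimens, was 0.149, 0.403 and 0.117 in specimens 1 to 3 and -0.284, -0.350 and 0.177 in specimens 4 to 6. The test was therefore repeated with an offset that removes a smooth length trend from each library. That left the median difference at 0.08 in the shortest class and 0.01 in the longest, again called no gene (0%, smallest adjusted p 0.0598, 2496 genes at an unadjusted p under 0.05), and put 1091 genes (8.56%) above and 1006 (7.9%) below vehicle without overlap. With and without the offset, 693 genes were above and 703 below. Whether the length trend comes from RNA quality, library preparation or the cells was not tested.

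**Figure D1:**
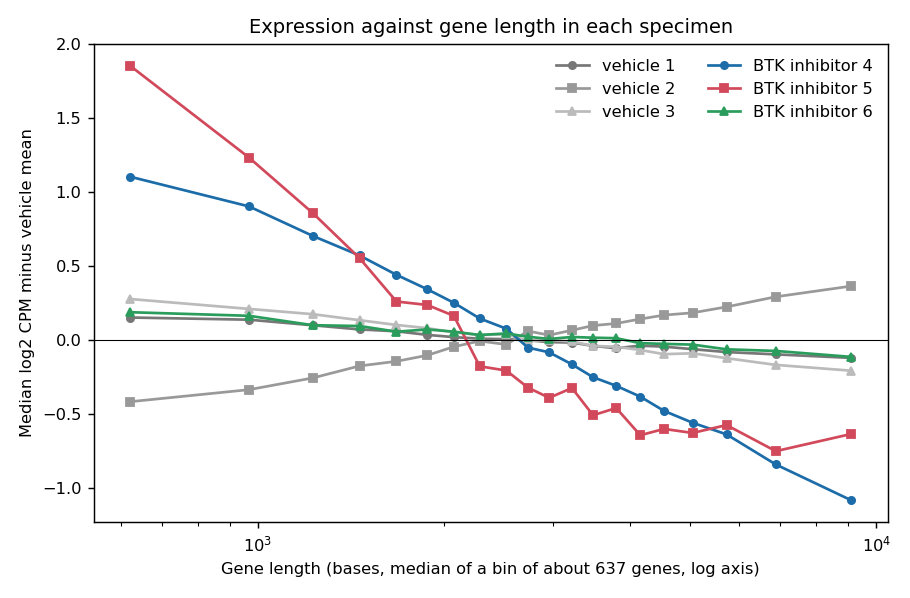
Median log2 CPM minus the vehicle mean (vertical axis) for 20 bins of tested genes ordered by length in bases (horizontal log axis), with 1 line for each of the 3 vehicle and 3 BTK inhibitor specimens. Specimens 4 and 5 slope down, from above 1 in the shortest bin, specimen 6 runs with vehicle specimens 1 and 3, and vehicle specimen 2 slopes up.

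Below vehicle in each of the 3 inhibitor specimens were several regulators of cytokine and inflammatory responses. Socs3, the feedback inhibitor of JAK signalling below cytokine receptors (chromosome 11, 117966087 to 117969366), was at 19.7, 19.2 and 25.5 CPM under vehicle and at 10.6, 4.64 and 7.03 CPM under the inhibitor. The highest inhibitor specimen stayed well under the lowest vehicle specimen, for a log2 difference of -1.50 (SE 0.35, edgeR adjusted p = 0.136). It was -1.39 with the length offset, -1.29 without specimen 5 and -1.44 without specimen 6. Irg1, now called Acod1, which makes the antimicrobial metabolite itaconate in activated macrophages, was at 8.32, 6.90 and 10.2 CPM against 2.81, 3.43 and 2.86 CPM. The 3 inhibitor specimens lay close together, and the difference of -1.49 (SE 0.37, edgeR adjusted p = 0.136) was -1.39 with the offset, -1.57 without specimen 5 and -1.46 without specimen 6. Tarm1, an activating receptor of neutrophils and macrophages, had the tightest groups of these genes, 20.2, 19.6 and 18.7 CPM against 12.2, 10.1 and 10.8 CPM. Its difference was -0.82 (SE 0.24, edgeR adjusted p = 0.136) and -1.46 with the offset. Specimen 6 was farther from vehicle than specimen 4 for Socs3 and Tarm1 and nearly level with it for Irg1.

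Other genes with the smallest p among those below vehicle were long, and specimen 6 stood between vehicle and the other inhibitor specimens. Hip1, an adaptor of clathrin-coated pits, was at 46.6, 47.8 and 38.7 CPM under vehicle and 12.2, 12.3 and 26.9 CPM under the inhibitor (-1.36, SE 0.33; -0.92 with the offset). Lrp1, a large scavenger receptor, was at 84.6, 127 and 68.5 CPM against 22.6, 28.3 and 56.2 CPM (-1.38, SE 0.37; -0.89 with the offset). Neither pair of groups overlapped, with or without the offset. Pik3r5, the p101 regulatory subunit of PI3Kγ, was at 77.5 ± 3.87 CPM under vehicle and 38.5 ± 10.6 under the inhibitor (SD, n = 3 each; -1.004, SE 0.24; -0.70 with the offset). The other genes named by the same rule, Rnf24, Dmxl2, Sbno2 and Adam19, had differences of -1.36, -1.20, -0.91 and -1.08, and -1.01, -0.69, -0.54 and -0.60 with the offset. Each had an edgeR adjusted p of 0.136. Of the 30 genes named by the ranking rule or fixed as targets, 27 passed the test once specimen 6 was left out (adjusted p from 0.0060 to 0.0436, edgeR), and the exceptions were Btk, Tec and Pik3cd. Most had been picked for a small p, and 29.4% of all genes passed in that setting. With the offset as well, 20 of the 30 passed, beside 16.6% of all genes, and without specimen 5 none of them did (27 of the 30 had passed in limma voom with all specimens and 26 in DESeq2).

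Interferon-stimulated genes, the antiviral genes switched on by type I interferon, were lower in specimens 4 and 5. Of 34 on the list, all tested, 30 had a difference below 0 and 9 stood below vehicle without overlap, against 51.2% and 9.61% of all tested genes, and none passed the test. The list's median difference was -0.76, beside -0.02 for all genes, and -0.72 with the length offset. The members below vehicle without overlap numbered 5 with the offset, beside 7.9% of all tested genes, and all 5 were among the 9. By specimen the medians were -0.98 in 4, -1.09 in 5 and -0.24 in 6, against 0.08, -0.32 and 0.26 in vehicle specimens 1, 2 and 3, so specimen 6 lay inside the vehicle range. Even so, 32 of the 34 genes were below the vehicle mean in specimen 6, beside 31 in specimen 4 and 27 in specimen 5. In all 3 inhibitor specimens 26 of the 34 were below it, as were 24.3% of all tested genes. The list's median was -0.64 without specimen 5 and -1.05 without specimen 6. In these bulk samples fewer cells of a type and less RNA per cell cannot be told apart.

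To show an element through which interferon can act, promoter stretches that hold a match are printed. They belong to list members lower under the inhibitor (Oas3 and Ifit3) and not lower (Isg15 and Bst2). Each is a stretch of 100 bases placed around a match within the 250 bases upstream of the RefSeq start (GRCm38.p6), 5′ to 3′ on the gene's strand. It runs from 135 to 36 bases before the start for Oas3, from 182 to 83 for Ifit3, from 126 to 27 for Isg15 and from 184 to 85 for Bst2, with every match to GAAANNGAAA on either strand in capitals (TTTCNNTTTC on the other strand).
Oas3, chr5:120777695-120777794, minus strand: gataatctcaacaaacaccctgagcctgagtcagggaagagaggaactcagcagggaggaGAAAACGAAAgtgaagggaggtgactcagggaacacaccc
Ifit3, chr19:34583347-34583446, plus strand: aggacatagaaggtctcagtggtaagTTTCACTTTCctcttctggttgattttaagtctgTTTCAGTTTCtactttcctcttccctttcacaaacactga
Isg15, chr4:156200845-156200944, minus strand: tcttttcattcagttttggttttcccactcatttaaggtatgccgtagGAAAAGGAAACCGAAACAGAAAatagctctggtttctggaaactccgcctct
Bst2, chr8:71537557-71537656, minus strand: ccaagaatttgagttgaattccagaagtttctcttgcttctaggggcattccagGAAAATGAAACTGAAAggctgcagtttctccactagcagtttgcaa
The 250 bases upstream of the start held such a match in 10 of the 24 list members with a promoter in the RefSeq table (41.7%), in 327 of 9691 tested genes (3.37%), in 2.98% of all 32851 promoters of the table, and in 3.88% of the genes below vehicle without overlap. Of the 10 members with a match 8 were lower, and of the 14 without one 12 were lower. Irf7 and Oasl2, described below, had no match in these 250 bases. A match is a description of letters and not a bound site.

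The levels of the genes with a printed stretch show how the specimens differed. Oas3, a sensor of double-stranded RNA, was at 174, 192 and 174 CPM under vehicle and 72.6, 38.8 and 128 CPM under the inhibitor, with no overlap (-1.17, SE 0.34, edgeR adjusted p = 0.136; -0.89 with the offset). Ifit3, of the IFIT family of antiviral genes, was at 25.1, 10.5 and 23.1 CPM against 7.12, 2.83 and 13.9 CPM, and specimen 6 overlapped vehicle (-1.25, SE 0.45, edgeR adjusted p = 0.145). Both were lowest in specimen 5. Isg15, a ubiquitin-like modifier, went the other way in that specimen: 24.6, 33.1 and 50.2 CPM against 37.97, 76.7 and 18.3 CPM (0.29, SE 0.54; -0.72 with the offset). Bst2, or tetherin, was at 42.3, 37.2 and 46.4 CPM against 78.4, 433 and 47.6 CPM (2.14, SE 0.64), 0.59 without specimen 5. Isg15 and Bst2 are among the short genes of the list, at 756 and 766 bases.

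Irf7 and Oasl2 were among the 5 list members that stood below vehicle without overlap both with and without the offset, beside Oas3, Oasl1 and Ddx58. Irf7, the factor that amplifies type I interferon, was at 87.9, 73.7 and 109 CPM under vehicle and 32.4, 41.8 and 57.7 CPM under the inhibitor (-1.03, SE 0.28, edgeR adjusted p = 0.136; -1.14 with the offset, -1.003 without specimen 5, -1.29 without specimen 6). Oasl2, an antiviral relative of the OAS enzymes, was at 128, 94.7 and 141 CPM against 23.0, 37.6 and 73.4 CPM (-1.44, SE 0.37, edgeR adjusted p = 0.136; -1.29 with the offset). In both, specimen 6 was the inhibitor specimen nearest to vehicle. Stat2, a signal carrier of the type I interferon receptor, was at 51.3 ± 2.40 CPM against 26.8 ± 16.7 (SD, n = 3 each) and also stood below vehicle, and its groups overlapped once the offset was used.

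**Figure D2:**
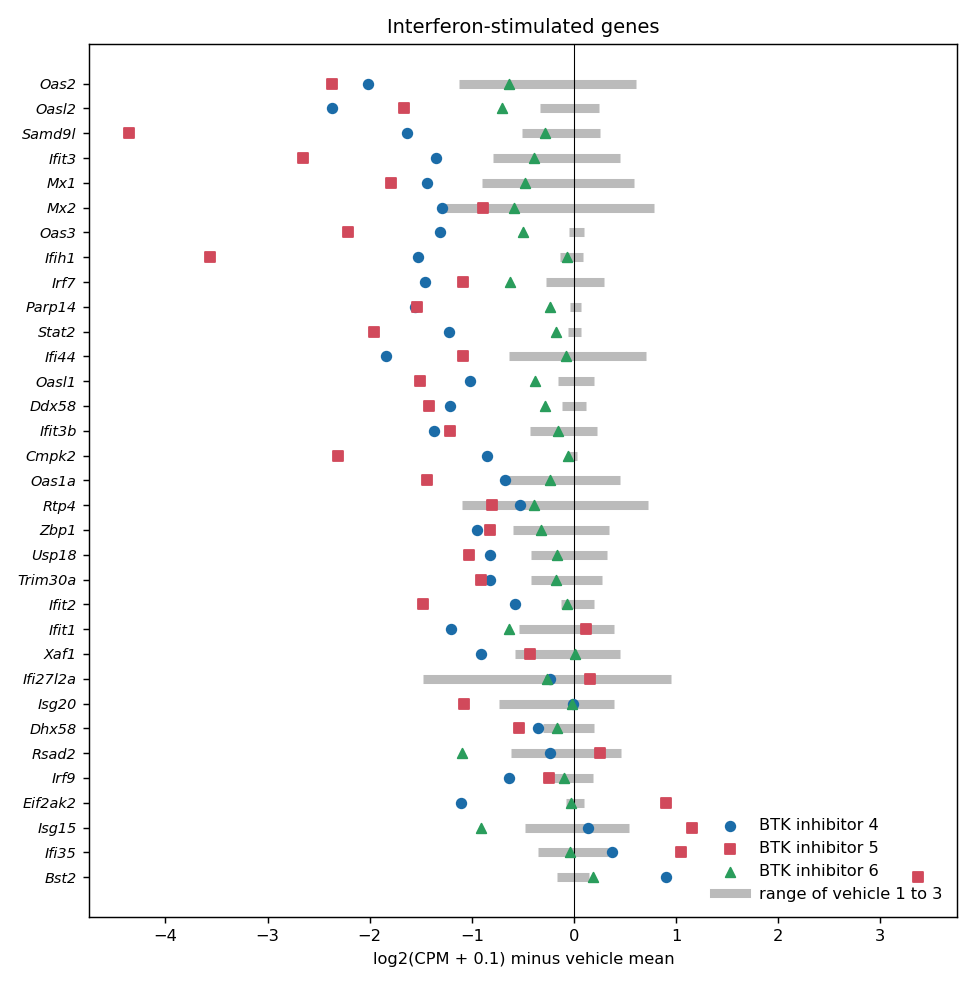
Log2(CPM + 0.1) minus the vehicle mean for 33 of the 34 interferon-stimulated genes, ordered by their fitted difference, with a grey bar for the range of the 3 vehicle specimens and a point for each inhibitor specimen. Specimens 4 and 5 lie left of the bar for most genes, specimen 6 lies near or inside it, and Bst2 is at the far right in specimen 5.

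A list of myeloid receptors and adaptors taken as upstream of BTK had a lower median, most of all in specimen 5. Several Toll-like receptors were among the members below vehicle. Of 28 receptors and adaptors 20 had a difference below 0 (51.2% of all tested genes) and 8 stood below vehicle without overlap (28.6%, beside 9.61% of all tested genes), with a median of -0.55 (-0.66 with the offset, -0.43 without specimen 5). With the offset 10 stood below vehicle, beside 7.9% of all tested genes. The medians were -0.13, -0.79 and -0.38 in specimens 4, 5 and 6, against 0.22, -0.37 and 0.13 in vehicle. Specimen 4 thus lay inside the vehicle range and specimen 6 at its lower end. With the offset the medians were -0.29, -0.98 and -0.43, against 0.25, -0.25 and 0.04 in vehicle. Below the vehicle mean in all 3 inhibitor specimens were 17 of the 28, beside 24.3% of all tested genes. Tlr2, the receptor for bacterial lipoproteins, was at 75.1, 56.3 and 85.1 CPM under vehicle and 47.0, 32.5 and 44.2 CPM under the inhibitor. All 3 inhibitor specimens lay below vehicle (-0.80, SE 0.26, edgeR adjusted p = 0.136; -0.66 with the offset). Tlr4, the receptor for lipopolysaccharide, was at 44.3, 30.9 and 44.5 CPM against 22.2, 10.7 and 26.7 CPM (-0.99, SE 0.34, edgeR adjusted p = 0.142; -0.77 with the offset). Tlr6, a partner of Tlr2, was at 14.5 ± 2.12 CPM against 8.53 ± 2.51 (SD, n = 3 each; -0.75, SE 0.27). Tlr13, a sensor of bacterial ribosomal RNA, was at 125, 126 and 121 CPM against 58.5, 11.1 and 81.2 CPM (-1.29, SE 0.50, -0.83 without specimen 5). The summed level of the list, which the most abundant members set, did not separate the groups: 5467, 3274 and 4893 CPM against 5596, 3640.2 and 3572 CPM.

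NF-kB genes and JAK-STAT genes leaned the same way. Of 26 NF-kB factors, feedback inhibitors and targets, 19 had a difference below 0. Of the 26, 6 lay below vehicle without overlap (23.1%, beside 9.61% of all tested genes). With the offset 8 did, beside 7.9% of all tested genes. Their median was -0.48 with and without the offset. Bcl3, a nuclear partner of the p50 and p52 subunits, was at 20.2, 27.4 and 20.6 CPM against 14.7, 4.44 and 9.97 CPM (-1.19, SE 0.37, edgeR adjusted p = 0.136; -1.38 with the offset). Nfkbia, the inhibitor that NF-kB itself induces, stood above every vehicle specimen in specimens 4 and 5: 98.2, 73.1 and 82.2 CPM against 148, 671 and 76.9 CPM (1.82, SE 0.61; 0.41 without specimen 5). Of 24 SOCS, JAK and STAT genes, 19 had a difference below 0. Of the 24, 10 lay below vehicle without overlap (41.7%, beside 9.61% of all tested genes), and 7 with the offset, beside 7.9%. Their median was -0.52, and -0.29 with the offset. After Socs3 the smallest p belonged to Jak3, the kinase of common gamma chain receptors, at 21.5, 27.0 and 23.3 CPM against 11.3, 9.69 and 14.4 CPM (-1.01, SE 0.30, edgeR adjusted p = 0.136; -0.73 with the offset). Pim1, a STAT5 target, was at 92.6 ± 2.02 CPM against 60.5 ± 17.6 (SD, n = 3 each; -0.61, SE 0.24; -0.83 with the offset).

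Genes of B-cell receptor and BTK signalling, of PI3K signalling and of RAS signalling had lower medians that were mostly or partly gone once gene length was allowed for. Over 29 genes of B-cell receptor and BTK signalling the median was -0.38, and -0.13 with the offset, with 22 below 0 (51.2% of all tested genes) and 4 of them below vehicle without overlap (13.8%, beside 9.61% of all tested genes). With the offset 5 of the 29 stood below vehicle without overlap, beside 7.9% of all tested genes. Syk, the kinase above BTK, was at 395, 442 and 338 CPM against 236, 80.0 and 318 CPM (-0.89, SE 0.39; -0.53 with the offset). Plcg2, the phospholipase below it, was at 226, 340.3 and 191 CPM against 124, 61.6 and 202 CPM, with overlapping groups (-0.96, SE 0.39). The receptor chains Cd79a and Cd79b were higher instead, at 0.88 (SE 0.33) and 1.20 (SE 0.34), with overlapping groups. For 26 class I PI3K, AKT and mTOR genes the median was -0.60, and -0.21 with the offset. Of these 7 stood below vehicle without overlap (26.9%, beside 9.61%), and 3 with the offset, beside 7.9%. Over 26 RAS pathway genes the median was -0.33, and -0.03 with the offset. Of these 6 stood below vehicle without overlap (23.1%, beside 9.61%), and 5 still did with the offset, beside 7.9%. Among 13 Tec and Src family kinases the median was -0.05, and 4 stood below vehicle without overlap (30.8%, beside the same 9.61%), Fgr and Lyn among them.

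ERK output and feedback genes had a median of -0.38 over 24 members, 16 of them below 0, and -0.33 with the offset. Of the 24, 4 lay below vehicle without overlap (16.7%, beside 9.61% of all tested genes), and 3 with the offset, beside 7.9%. With the offset the medians were -0.62, 0.015 and -0.24 in specimens 4, 5 and 6, against 0.22, -0.078 and -0.20 in vehicle. Specimen 5 then lay inside the vehicle range. Fosl2, an AP-1 subunit, was at 147, 139 and 130.2 CPM against 72.0, 103 and 75.7 CPM (-0.73, SE 0.24, edgeR adjusted p = 0.136; -0.23 with the offset). Spry2, a feedback inhibitor of RAS signalling, was at 7.51, 9.80 and 6.57 CPM against 9.98, 62.4 and 6.87 CPM, so specimen 5 alone carried its difference (1.69, SE 0.63; 0.08 without that specimen).

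**Figure D3:**
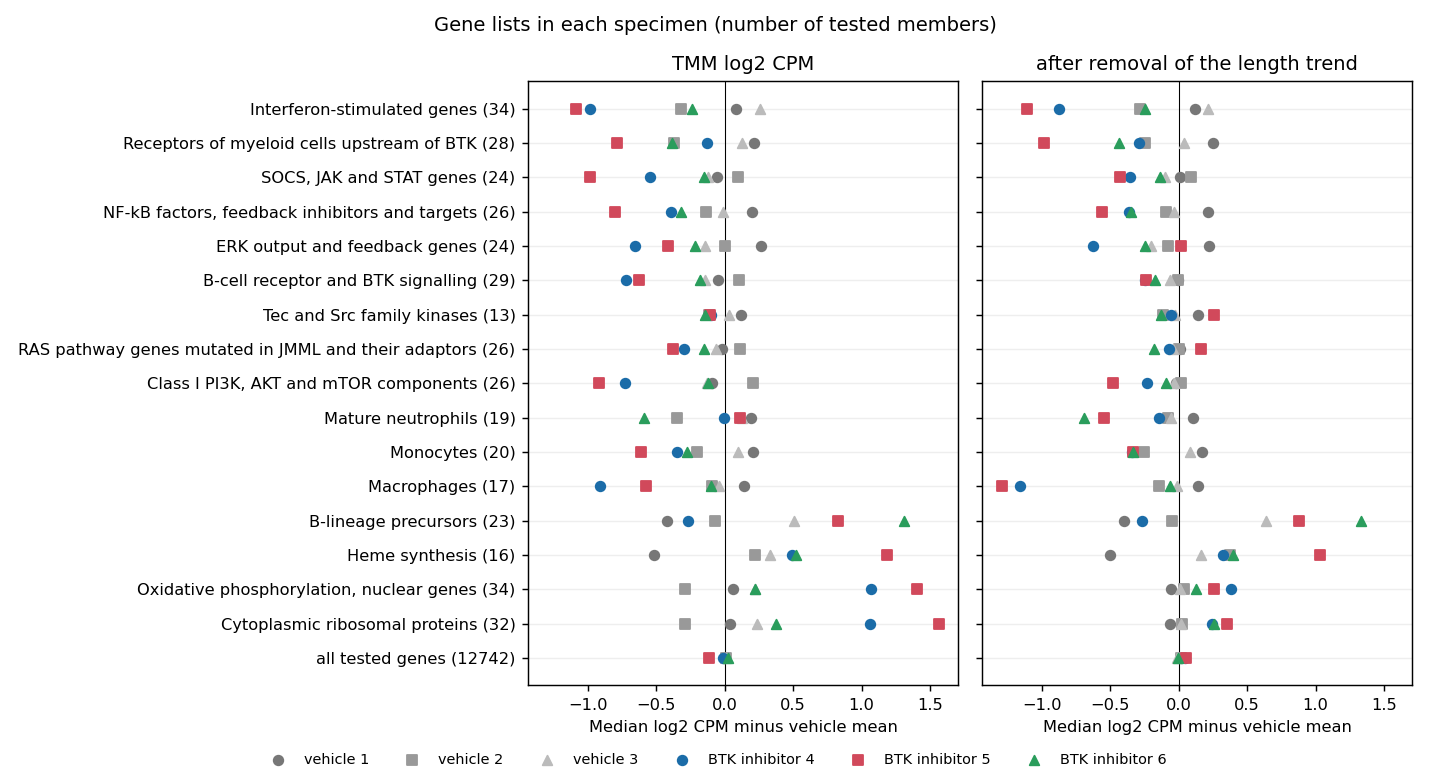
Median over the tested members of each list (number in brackets) of log2 CPM minus the vehicle mean, 1 point for each specimen, before (left) and after (right) removal of the length trend. Interferon-stimulated genes keep their place in specimens 4 and 5, while the lists of oxidative phosphorylation and ribosomal proteins move toward 0 on the right.

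Among genes above vehicle, a few kept their difference in every inhibitor specimen. Serpini1, or neuroserpin, was at 2.86, 2.33 and 2.89 CPM under vehicle and 5.04, 6.66 and 5.56 CPM under the inhibitor (1.08, SE 0.29, edgeR adjusted p = 0.136; 1.27 with the offset). Trib2, a pseudokinase that promotes degradation of C/EBPα, was at 3.22, 6.17 and 4.28 CPM against 7.17, 11.3 and 9.93 CPM (1.04, SE 0.30, edgeR adjusted p = 0.136; 1.38 with the offset). Ctsk, a cysteine protease best known from osteoclasts, was at 3.85, 0.898 and 6.31 CPM against 21.0, 18.8 and 9.06 CPM (2.14, SE 0.54, edgeR adjusted p = 0.136; 1.86 with the offset). Leaving out specimen 5 or 6 gave 0.98 and 1.09 for Serpini1, 0.91 and 0.99 for Trib2, and 2.02 and 2.44 for Ctsk.

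Other genes above vehicle were highest in specimen 5 by a wide margin. Wbp5, also called Tceal9, was at 25.0, 20.8 and 36.7 CPM against 99.7, 486 and 47.7 CPM, a log2 difference of 2.93 (SE 0.67) and 1.42 without specimen 5. Birc5, or survivin, which acts in chromosome segregation, was at 119.5, 99.9 and 148 CPM against 304, 1200.1 and 162 CPM (2.18, SE 0.58; 0.93 without specimen 5). In both, specimen 6 lay just above the highest vehicle specimen. Itgb3bp, a centromere protein, was at 5.31 ± 2.01 CPM against 16.7 ± 8.01 (SD, n = 3 each; 1.63, SE 0.38; 1.23 without specimen 5). The differences of Hebp1, Nme3, Asb17os, Cbx6, Sdc4 and Psmd9 were 1.94, 1.99, 2.47, 1.81, 1.42 and 2.10, and 1.27, 1.23, 1.39, 0.82, 0.88 and 0.93 without specimen 5. The library kit does not mark strand, so reads of the antisense gene Asb17os cannot be told from those of its partner.

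**Figure D4:**
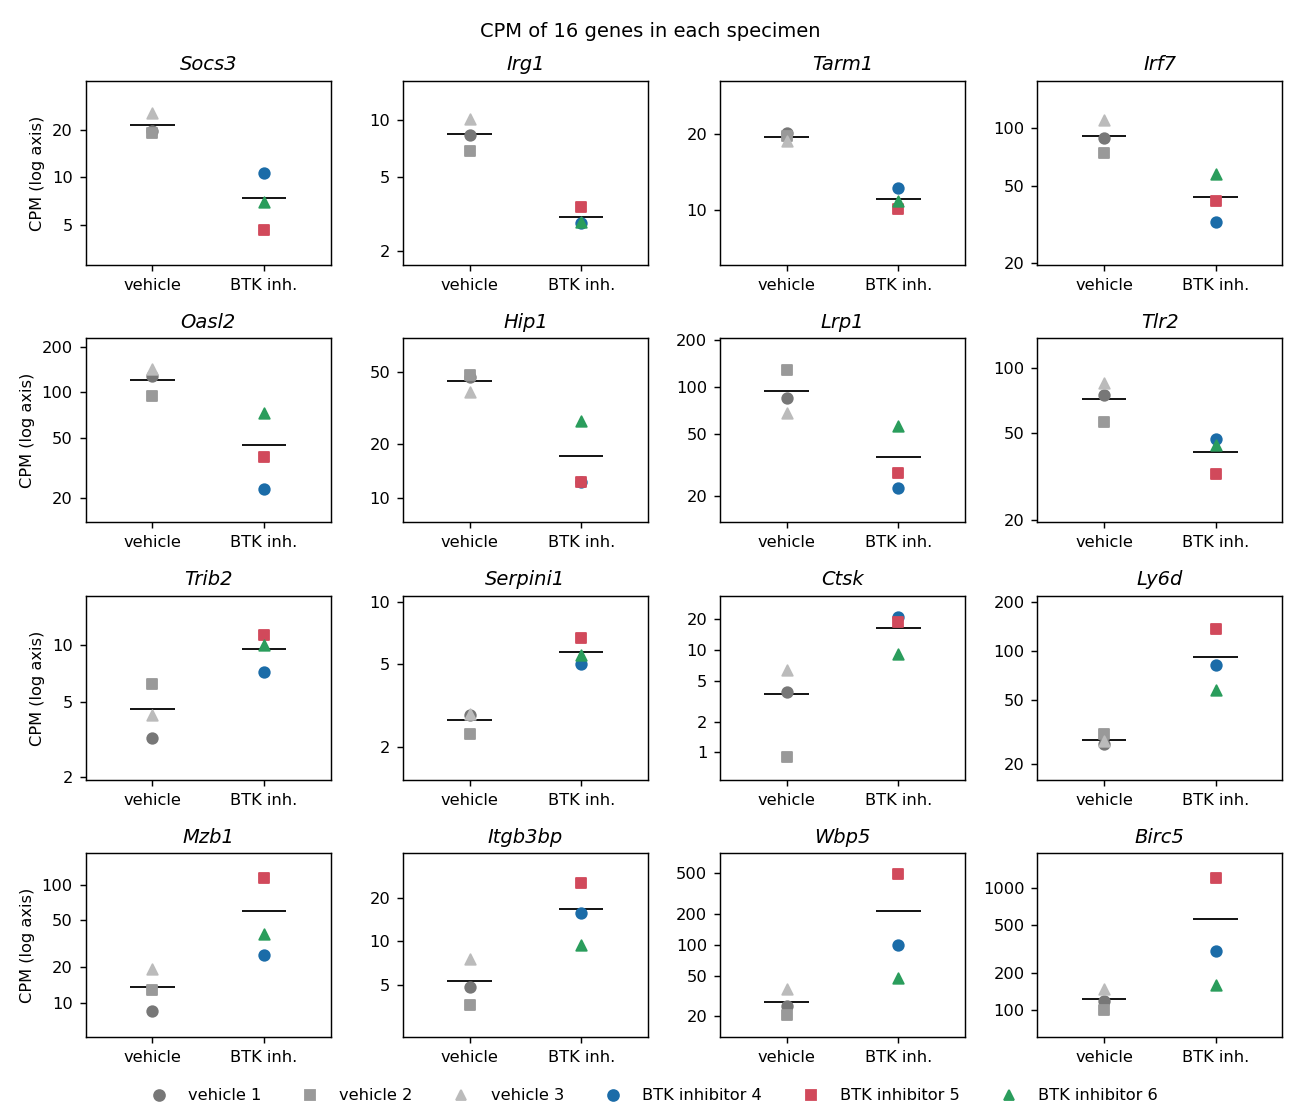
CPM (vertical log axis) of 16 genes in the 3 vehicle and 3 BTK inhibitor specimens, 1 point each, with a black line at each group's mean. Socs3, Irg1 and Tarm1 are lower in all 3 inhibitor specimens, and Wbp5 and Birc5 are far highest in specimen 5.

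Genes of B-lineage precursors were higher in specimens 5 and 6 but not in specimen 4. Of 23 tested members 21 had a difference above 0 and 2 lay above vehicle without overlap (8.70%, near the 8.92% of all tested genes), with a median of 0.88 (0.65 with the offset). The medians by specimen were -0.27 in 4, 0.82 in 5 and 1.31 in 6, against -0.42, -0.07 and 0.51 in vehicle. This is a list in which specimen 6 was the farther from vehicle. Ly6d, a surface protein of committed lymphoid precursors, was at 26.7, 30.7 and 27.7 CPM against 81.6, 136 and 57.3 CPM (1.68, SE 0.35, edgeR adjusted p = 0.136; 0.70 with the offset). It is also on the list of dendritic cells, and it was above vehicle in specimen 4, where the precursor median was not. Dntt, the terminal transferase of rearranging lymphocytes, was at 27.5, 32.8 and 45.9 CPM against 59.7, 51.5 and 95.9 CPM (0.97, SE 0.29, edgeR adjusted p = 0.136; 0.95 with the offset). Rag1, the recombinase, overlapped widely, at 13.5, 19.5 and 30.6 CPM against 5.52, 10.1 and 49.3 CPM (0.05, SE 0.62). The summed level of the precursor list was 458, 559.9 and 673 CPM in vehicle and 544, 1235 and 1061 CPM in specimens 4, 5 and 6. Mzb1, a chaperone of antibody secretion in B cells, is not on that list but on the list of plasma cells. It was at 8.54, 12.8 and 19.3 CPM against 25.4, 115 and 38.4 CPM (2.12, SE 0.50; 1.28 with the offset, where the groups overlapped). The 12 plasma cell genes had medians of 0.57, 0.60 and 0.80 in specimens 4, 5 and 6, against -0.21, 0.11 and 0.02 in vehicle. Of the 12, 3 lay above vehicle without overlap (25%, beside 8.92% of all tested genes), and 2 with the offset, beside 8.56%.

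Heme synthesis genes were higher in part, and the hemoglobin genes could not be read beside them. Of 16 members 12 had a difference above 0 and 8 lay above vehicle without overlap, beside 8.92% of all tested genes, and 5 with the offset, beside 8.56%, with a median of 0.76 (0.55 with the offset, 0.40 without specimen 5). Uros, uroporphyrinogen III synthase, was at 21.0, 31.6 and 39.5 CPM against 62.3, 65.2 and 57.6 CPM (1.01, SE 0.34, edgeR adjusted p = 0.138; 1.11 with the offset). Its 3 inhibitor specimens were close together, unlike Glrx5, a glutaredoxin of iron-sulfur cluster assembly, at 57.3, 77.6 and 96.3 CPM against 221, 1629.9 and 106 CPM (3.08, SE 0.79; 1.09 without specimen 5). Erythroid markers as a list had a median of 0.04 over 19 tested members. Their summed level was lowest in vehicle specimen 1, at 1608 CPM, and lay between 3249.5 and 4748.6 CPM in specimens 2 to 6. The part of erythroid content in these results was not tested.

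Genes of ribosomal proteins and of oxidative phosphorylation, which are short, had higher medians that shrank once the length trend was removed. All 32 cytoplasmic ribosomal protein genes had a difference above 0 and 26 lay above vehicle without overlap, beside 8.92% of all tested genes, with a median of 1.07. With the offset the median was 0.31 and 16 lay above, beside 8.56% of all tested genes. Rplp1, of the ribosomal stalk, was at 645, 614 and 720.1 CPM against 1849, 8680.0 and 978 CPM (2.54, SE 0.66; 1.12 with the offset). Processed pseudogenes of such genes can share reads with them. Of 34 nuclear genes of oxidative phosphorylation 30 had a difference above 0 and 10 lay above vehicle without overlap (29.4%, beside 8.92%), with a median of 0.99. With the offset their median was 0.27, and 9 still lay above vehicle, beside 8.56% of all tested genes. For 32 genes of the DNA replication machinery the median was 0.20 and 0.23 with the offset, with 27 above 0. Of these 9 lay above vehicle without overlap (28.1%, beside 8.92%), and 5 did with the offset, beside 8.56%. Rfc4, a subunit of the clamp loader, was at 38.5, 38.6 and 56.5 CPM against 90.7, 139 and 65.8 CPM (1.14, SE 0.32, edgeR adjusted p = 0.136; 0.57 with the offset).

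Markers of mature myeloid cells were lower in part, and their lists did not share the same order over the specimens. Medians in specimens 4, 5 and 6 were -0.91, -0.58 and -0.10 for macrophages. They were -0.35, -0.61 and -0.28 for monocytes, and -0.0064, 0.11 and -0.59 for mature neutrophils. For macrophages 15 of 17 tested members had a difference below 0 (51.2% of all tested genes) and 4 lay below vehicle without overlap (23.5%, beside 9.61%), with a median of -0.49 (-0.73 with the offset) and summed levels of 1109 to 1658 CPM in vehicle and 817 to 1226 in the inhibitor specimens. The defining marker Adgre1, or F4/80, was at 52.5, 52.6 and 64.0 CPM against 26.9, 10.1 and 43.6 CPM (-1.05, SE 0.43, edgeR adjusted p = 0.170), and Marco and Timd4 were too low to test. For monocytes 15 of 20 had a difference below 0, with a median of -0.29 and summed levels of 3822 to 4353 CPM against 3118 to 3986. Of the 20, 4 lay below vehicle without overlap (20%, beside 9.61%), and 4 with the offset, beside 7.9%. For mature neutrophils 10 of 19 had a difference below 0 and 9 had one above it, near the 51.2% below 0 of all tested genes. Even so, 6 of the 19 lay below vehicle without overlap (31.6%, beside 9.61%) and 0 lay above it. With the offset 17 of the 19 were below 0, beside 5983 of 12742 tested genes. In that fit 7 lay below vehicle without overlap, beside 7.9% of all tested genes. The median of the 19 was -0.13, -0.47 with the offset and 0.23 without specimen 6. Summed levels of mature neutrophil genes were 71641.8, 42829.6 and 72121 CPM in vehicle and 136373, 124713 and 50593.5 CPM in specimens 4, 5 and 6. Csf3r, the receptor for G-CSF, was at 766, 531 and 574 CPM against 378, 147 and 361 CPM (-1.08, SE 0.36, edgeR adjusted p = 0.137), and Cxcr2, the receptor that draws neutrophils to chemokines, at 436 ± 26.3 against 285 ± 30.5 (SD, n = 3 each; -0.61, SE 0.24, -0.42 with the offset). For immature neutrophils, a list of granule proteins for the most part, 12 of 16 had a difference below 0, with a median of -0.21, -0.51 with the offset and 0.12 without specimen 5. Abca13, a large transporter, was at 129, 170.1 and 82.2 CPM against 25.0, 6.46 and 82.5 CPM (-1.72, SE 0.66; -1.25 with the offset). Itgb2l, an integrin chain of neutrophils, was at 530.1, 557 and 409.8 CPM against 345, 61.0 and 359.7 CPM, below vehicle in all 3 specimens (-0.97, SE 0.48; -0.50 without specimen 5). Camp, the cathelicidin of granules, was higher in specimens 4 and 5, at 10341, 4866 and 10120 CPM against 26556, 73083 and 6880.1 CPM (2.07, SE 0.68; 0.85 with the offset). S100a9, a subunit of calprotectin, was at 30472 ± 9674 CPM against 59227 ± 30154 (SD, n = 3 each; 0.96, SE 0.48; -0.085 with the offset), with overlapping groups. The part of cell composition in these differences was not tested.

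The gene with the smallest p had no count in any vehicle specimen. Capn11, a calpain known from testis (chromosome 17, 45630204 to 45659309), had counts of 0, 0 and 0 in vehicle and 78, 5 and 54 in specimens 4, 5 and 6. At 2.43 ± 1.59 CPM (SD, n = 3) it was at least 56.8-fold higher than vehicle, with the floor set at 3 counts over the 3 vehicle specimens, and at least 36.8-fold without specimen 4. Its edgeR adjusted p was 0.0773. It is the gene called without specimen 5, and it was named here after its values were seen. Counts were 42, 20 and 9 under the PI3K inhibitor and 0, 0 and 1 under the combination.

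The same drug was also given on top of the PI3K inhibitor, in specimens that share none with the comparison above. For the genes named here those values differed in size and often in sign. Socs3 was at -1.50 for the BTK inhibitor against vehicle and 0.23 for the combination against the PI3K inhibitor, Hip1 at -1.36 and 1.49, Irf7 at -1.03 and -0.10, Irg1 at -1.49 and -0.09, and Ly6d at 1.68 and -0.81. The median of the interferon-stimulated genes was -0.76 and -0.03, that of ribosomal proteins 1.07 and -1.11, and that of B-cell receptor and BTK signalling -0.38 and 0.65. A test of the difference between the settings passed for 3522 genes (27.6%, edgeR adjusted p). With the length offset it passed for 1 (0.00785%), Capn11. The length slopes of the PI3K inhibitor specimens were -0.0977, -0.367 and -0.378 and those of the combination 0.0934, 0.247 and 0.291.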

How the data were processed

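RNA of the bone marrow mononuclear cells was made into cDNA with a SMART-Seq v4 low input kit and into libraries with Nextera XT, per the labels' protocols. STAR, featureCounts and mm10 are named in the submitters' processing notes, and their versions are not given. The authors deposited whole-number counts per gene, with gene length in bases, as 1 column for each of 12 specimens, while 24 samples are listed (2 for each specimen number). No paired samples exist between the groups.

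Genes were kept with edgeR's filterByExpr by group (smallest count 10, total count 15), scaled by TMM and fitted with robust quasi-likelihood over all 12 specimens in R 4.3.3 (edgeR 4.0.16, limma 3.58.1, DESeq2 1.42.0), with Benjamini-Hochberg adjustment over 12742 genes and a threshold of 0.05. CPM is per 1000000 counts of tested genes after TMM scaling, and logs were taken with a prior count of 2. The length offset is a natural spline with 5 degrees of freedom on log2 length in each library. Total counts ranged from 8993950 to 22154833, so low counts are least precise in specimen 5. The fit was tested on simulated data, where it called 7 of 100 genes changed 2-fold and 79 of 100 changed 4-fold. There were 5 false calls. The simulated libraries held no length trend and no outlying specimen, unlike the data.

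Named were Btk, Tec, Ptpn11 and Pik3cd, the 8 genes in each direction with the smallest p among those without overlap, log2 CPM averaging at least 2 and no predicted gene or antigen receptor segment, the same with the offset for genes that kept their sign without each specimen, and up to 4 members of each list by p, beside members that form a pathway's core. The genes, the 38 lists and the tests were chosen with earlier results of these data known. Promoters came from RefSeq (GRCm38.p6). Some list members are not reported here by name.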

Additional observations from a re-analysis of the deposited data

Results flagged for a closer look

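The difference under the BTK inhibitor alone (against vehicle) and the difference under the BTK inhibitor added to the PI3K inhibitor (combination against PI3K inhibitor alone) were not the same for 23 of the 30 genes named by rank or fixed as targets, by an edgeR test of the difference between them with Benjamini-Hochberg adjustment over all genes. The adjusted p was 0.0202 for Ly6d, Wbp5, Itgb3bp, Hebp1, Nme3, Asb17os, Pik3r5, Hip1, Dmxl2, Sbno2, Adam19, Serpini1, Psmd9, Birc5, Lrp1 and Rnf24. It was 0.0203 for Mzb1, 0.0245 for Socs3, 0.0256 for Ctsk, 0.026 for Oasl2, 0.0265 for Pik3cd, 0.0276 for Sdc4 and 0.0323 for Tarm1. For Hip1 the log2 differences were -1.36 and 1.49, for Lrp1 -1.38 and 1.61, for Wbp5 2.93 and -1.32, for Socs3 -1.50 and 0.23, and for Tarm1 -0.82 and 0.27. With the gene length offset none of the 23 passed, at adjusted p values from 0.0621 to 0.877. All but Pik3cd were chosen for a large difference under the inhibitor alone, which is 1 term of this test.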

How the results depend on the processing

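No paired analysis was possible because the groups share no replicate number. The 0 calls of the edgeR test stayed at 0 with RLE or upper quartile scaling, a filter of 1 CPM, the 6 specimens alone, Rn45s left out, a Y-linked covariate or the length offset. DESeq2 called 1085 genes, limma voom 2979 and no filter 1 (Capn11). Leaving out 1 specimen gave 0 to 3809 calls, and with the offset 1 without specimen 5 (Capn11) and 2145 without specimen 6, 1642 of them among the 3809.

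List medians moved as follows. With the length offset they were -0.13 for the B-cell receptor and BTK pathway, 0.049 for Tec and Src kinases, -0.027 for RAS genes, -0.21 for PI3K genes, 0.27 for oxidative phosphorylation, 0.31 for ribosomal proteins and -0.47 for mature neutrophils. With the offset and without specimen 5 they were -0.12 for the B-cell receptor and BTK pathway, 0.036 for Tec and Src kinases, -0.14 for RAS genes, -0.19 for PI3K genes, 0.24 for oxidative phosphorylation, 0.24 for ribosomal proteins and 0.30 for heme synthesis. With the offset and without specimen 6 they were 0.094 for Tec and Src kinases, 0.034 for RAS genes, -0.27 for PI3K genes, 0.30 for oxidative phosphorylation, 0.34 for ribosomal proteins and -1.31 for macrophages. Leaving out 1 specimen gave ranges of -0.79 to -0.24 for the B-cell receptor and BTK pathway, -0.26 to 0.016 for Tec and Src kinases, -0.43 to -0.15 for RAS genes, -0.68 to -0.15 for ERK genes, -0.70 to -0.39 for NF-kB genes and -0.47 to 0.23 for mature neutrophils. The ends of these ranges came without vehicle specimen 1 for ERK genes (-0.15), without vehicle specimen 2 for Tec and Src kinases (-0.26) and mature neutrophils (-0.47), and without specimen 6 for mature neutrophils (0.23).

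Btk and Tec changed sign around 0. Btk was at 0.049 with the length offset, 0.038 with it and without specimen 5, 0.094 with it and without specimen 6, and from -0.14 to 0.036 with 1 specimen left out. Tec was at 8.28e-07 in DESeq2, 0.048 in limma voom, 0.11 with the offset, 0.036 with it and without specimen 5, 0.22 with it and without specimen 6, 0.0046 with a Y-linked covariate, and from -0.11 to 0.059 with 1 specimen left out.

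The other 28 of the 30 genes named by rank or fixed as targets kept their direction under every alternative run. All of the 28 but Ptpn11 and Pik3cd had been picked for groups without overlap, which leaves little room for a change of sign. Those picked with the offset also had to keep their sign without each specimen, so their kept direction is no separate result. Of 37 further genes named in the text, 5 changed sign. Isg15 was at -0.72 with the offset, -0.96 with it and without specimen 5, -0.54 with it and without specimen 6, and from -0.36 to 0.66 with 1 specimen left out. Rag1 was at -1.39 in limma voom, -0.80 with the offset and without specimen 6, -0.32 with a Y-linked covariate, and from -1.49 to 0.51 with 1 specimen left out. S100a9 was at -0.085 with the offset and -0.013 with it and without specimen 5, Cd79a at -0.18 with it and without specimen 6, and Spry2 at -0.032 with it and without specimen 5. The cause of these shifts was not tested. Specimen 5, with the fewest counts and the largest Rn45s share, limits the precision of genes with low counts.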
